A study of Mus musculus with 27 samples.

Results

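The genes of this account are 37 genes that cells switch on in response to type I interferons, the interferon alpha and beta family. They are a list of symbols. No measured value enters the rule, but the list was drawn up with earlier results of these data known. All 37 were found among the 56941 genes of the tables: 36 by symbol, and Ddx58 as Rigi, its current name, by its gene identifier. All 37 passed the filter on low counts and were among the 24629 genes tested. The samples were whole lungs of male wild-type C57BL/6 mice aged 7 to 8 weeks, profiled by RNA sequencing of polyadenylated RNA, with 27 libraries. Every mouse received 5 oropharyngeal doses, 2 to 3 days apart, of either house dust mite extract (HDM, 10 µg in 50 µl), an allergen that gives allergic airway inflammation, or phosphate-buffered saline (PBS). At 24 hours after the last of these, each received 100 µl of either saline (SAL) or combustion products (CP, 2 mg/ml) of burned paper, plastic and plywood, and the lungs were taken 24 hours later. This gave 7 libraries of mice given PBS then saline (PBS_SAL), 7 given PBS then combustion products (PBS_CP), 6 given mite then saline (HDM_SAL) and 7 given both (HDM_CP). Libraries are named by group and by the number the labels give them. The labels do not say more about what separates the libraries of a group, so p-values measure the spread between these libraries, and whole-lung RNA cannot tell fewer or more cells of a type from less or more RNA per cell.

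Type I interferons bind the receptor IFNAR1/IFNAR2, whose kinases JAK1 and TYK2 activate the transcription factor complex ISGF3, which holds STAT2 and IRF9 and binds interferon-stimulated response elements in the promoters of antiviral genes. The products sense foreign RNA and DNA, degrade RNA, block viral entry, translation and budding, and feed back on the pathway itself. Several of the same genes, above all the chemokines Cxcl9 and Cxcl10, also respond to interferon gamma, the product of natural killer and T cells. In the lung, epithelium, macrophages and monocytes all make this response.

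House dust mite raised most of these genes, and the levels with and without combustion products did not differ past the test. Averaged over saline and combustion products, 25 of 37 members were higher in HDM than in PBS lungs and 0 were lower (edgeR quasi-likelihood test, Benjamini-Hochberg adjusted p under 0.05), where 9.20% of all genes tested were called higher and 6.98% lower. The increases were moderate: the median log2 fold change of the 37 was 0.41, against 0.01 over all genes tested, and all 37 were above 0, as were 52.6% of all genes. Averaged over HDM and PBS, 0 of 37 members were called between CP and saline, where 0.0406% of all genes were called higher. The HDM difference was uneven between mice. HDM_SAL 99, HDM_CP 66 and HDM_CP 67 carried much higher levels than the other HDM libraries, and without these 3 libraries, chosen after their values were seen, 21 members were higher for HDM averaged. No share over all genes is given for that refit, so the 21 cannot be set against a background.

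Promoter sequence is shown first, because a motif there recurs among the members. The motif was not searched when the list was chosen, but known interferon response genes are the genes that tend to carry it. Its share among the members therefore describes the list and is not a result of these lungs. RefSeq promoter windows on GRCm38.p6, 250 bases before to 50 bases after the start of transcription, were at hand for 28 of the 37 members. The core of the interferon-stimulated response element, searched as GAAA, any 2 bases and GAAA again on both strands, was in the window of 15 of these 28 (53.6%) and of 3.99% of 27018 genes. The gamma-activated site, TTCNNNGAA, which reads the same on both strands in its fixed bases, was in 6 of 28 members (21.4%) and in 9.55% of all genes. A stretch was taken where a match and 10 bases on each side lay within the window before the start, which left out Eif2ak2, called and with a match. The stretches below are those of the 8 members with the smallest p among the members called in any comparison that met this rule. They show how the motif recurs: capitals mark the bases covered by a match, read 5′ to 3′ on the strand of the gene, so a match on the other strand appears as TTTC, 2 bases and TTTC.

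Oas1a: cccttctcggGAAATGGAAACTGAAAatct
Ifit1: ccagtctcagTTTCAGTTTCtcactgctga
Cxcl10: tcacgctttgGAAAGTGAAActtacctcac
Oas3: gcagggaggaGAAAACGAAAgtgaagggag
Trim30a: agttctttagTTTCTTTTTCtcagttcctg
Isg15: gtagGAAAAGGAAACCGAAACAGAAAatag
Rsad2: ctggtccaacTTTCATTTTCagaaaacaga
Bst2: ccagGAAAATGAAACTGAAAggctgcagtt

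On GRCm38.p6 these stretches lie at chr5:120907526-120907555 for Oas1a, chr19:34640794-34640823 for Ifit1, chr5:92349083-92349112 for Cxcl10, chr5:120777715-120777744 for Oas3, chr7:104465210-104465239 for Trim30a, chr4:156200871-156200900 for Isg15, chr12:26456553-26456582 for Rsad2 and chr8:71537577-71537606 for Bst2. Ifit1 is on the plus strand and the other 7 are on the minus strand. Isg15 has 3 overlapping matches in a row, Oas1a and Bst2 have 2 each, and the other stretches have 1. In Oas1a the stretch begins 30 bases before the start and in Cxcl10 it begins 223 bases before it. The motif was in 10 of the 18 members with a window that were called for HDM averaged and in 5 of the 10 with a window that were not. A match is a description of the letters, not evidence of binding.

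Depth overlapped between groups but reached lower in the PBS groups. Estimated counts per library were 56.3 to 77.2 M (1e+06) in PBS_SAL, 56.5 to 74.0 M in PBS_CP, 70.5 to 83.3 M in HDM_SAL and 67.8 to 84.5 M in HDM_CP. The 3 libraries with the lowest totals were PBS_SAL 104, PBS_CP 102 and PBS_SAL 105. The members took 0.116% to 0.227% of the counts. Lung identity markers such as the surfactant genes were high in every library, with a summed level of 26804 to 53535 CPM (estimated counts per 1e+06 counts). Mitochondrial RNA was 3.09% in HDM_SAL 99, 3.26% in HDM_SAL 50 and 3.86% in HDM_SAL 54, and 2.08% to 2.78% in the other 24. Levels below are CPM, given as the group median with the lowest and highest library in parentheses. Each fold change is a log2 value ± standard error, and the 4 comparisons between pairs of groups, the 2 averages and their interaction use the same libraries, so they are not independent of each other.

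**Figure D1:**
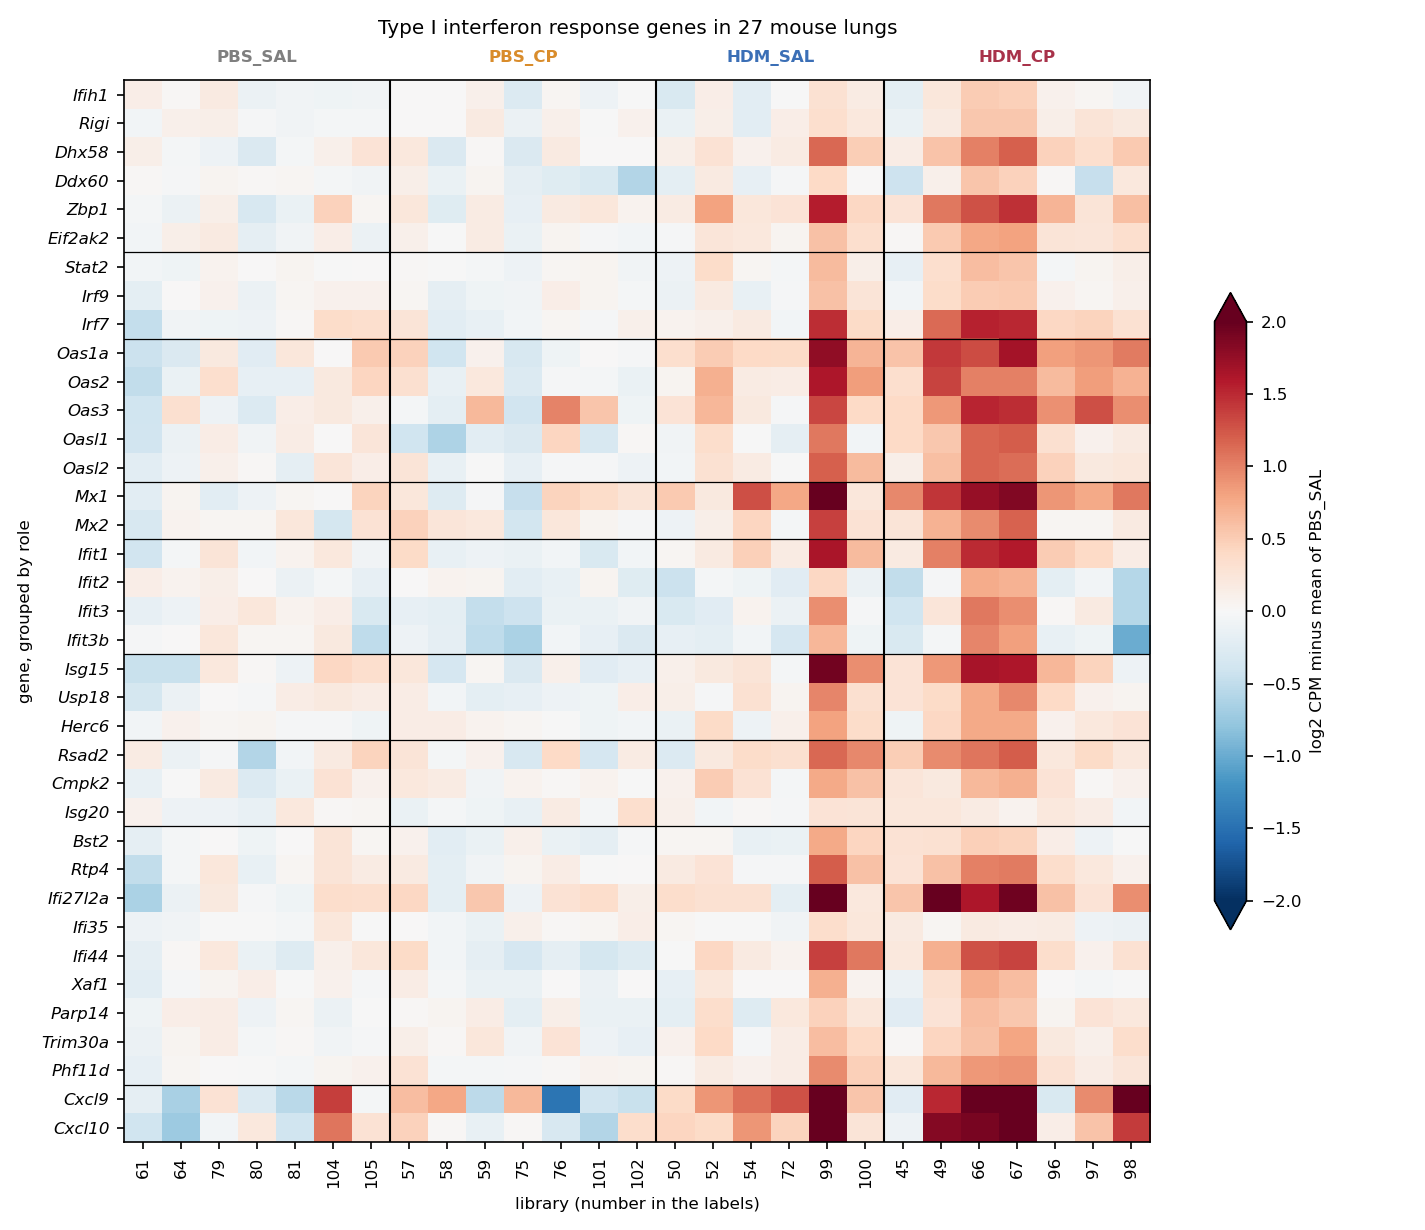
Level of each of the 37 members (vertical axis, grouped by role, lines between roles) in each of the 27 libraries (horizontal axis), as log2 CPM minus the mean of the 7 PBS_SAL libraries; colours end at -2 and 2. The columns of HDM_SAL 99, HDM_CP 66 and HDM_CP 67 are red for nearly all members, HDM_CP 49 follows, and the PBS_SAL and PBS_CP columns look alike.

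Compared per transcript length, the members spanned a wide range of levels in PBS_SAL lungs. Bst2, which encodes the viral budding inhibitor tetherin, had the highest median at 199 TPM (transcripts per 1e+06 transcripts), followed by Ifit3 at 93.0 TPM and Ifi35 at 80.6 TPM. Cxcl9 was lowest at 0.51 TPM, then Oas3 at 3.01 TPM and Cxcl10 at 3.59 TPM. The 37 members together summed to 1089 to 1389 TPM in PBS_SAL, 1133 to 1328 TPM in PBS_CP, 1140 to 2340 TPM in HDM_SAL and 1237 to 2266 TPM in HDM_CP. The lowest HDM libraries were thus within the range of the PBS libraries, and the groups overlapped.

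Groups that did not overlap were found for 4 members, Oas1a, Oas2, Mx1 and Zbp1, all in HDM_CP against PBS_CP, where 1.41% of all genes tested were higher in every library. In HDM_SAL against PBS_SAL it was 0 of 37 members, against 1.17% of all genes. In the 2 CP comparisons it was 0 as well, against 0.0609% for PBS_CP and 0.106% for HDM_CP over HDM_SAL.

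The 2-5A synthetases, once bound to double-stranded RNA, make the 2-5A messenger that activates the RNA-degrading enzyme RNase L, while OAS-like proteins can also act without that activity. All 5 members of this family were higher for HDM averaged and in HDM_CP against PBS_CP. Oas1a, on chromosome 5 at 121034319 to 121045584 (GRCm39), was at 8.799 CPM (6.48 to 12.5) in PBS_SAL, 8.598 (6.62 to 11.996) in PBS_CP, 11.96 (11.1 to 29.7) in HDM_SAL and 17.999 (12.99 to 27.6) in HDM_CP. Every HDM_CP library was above every PBS_CP library, and HDM_SAL overlapped PBS_SAL with only libraries 99 and 100 above its highest value. Its log2 fold change was 0.96 ± 0.15 (adjusted p = 6.42e-05) for HDM averaged and 1.16 ± 0.21 (adjusted p = 0.00079) within CP. Within saline it was 0.75 ± 0.21 (adjusted p = 0.037), and without HDM_SAL 99 it was 0.43 (adjusted p = 0.19). That call was also lost on leaving out PBS_SAL 61, 64, 79, 80 or 104. Oas1a and its paralog Oas1g are close copies that may share reads.

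Oas2 lies beside Oas3 and Oas1a and was at 13.8 CPM (10.7 to 20.4) in PBS_SAL, 14.8 (12.5 to 18.9) in PBS_CP, 20.9 (15.7 to 46.7) in HDM_SAL and 27.04 (19.1 to 38.7) in HDM_CP. All 7 HDM_CP libraries were above all PBS_CP libraries, and 3 of 6 HDM_SAL libraries (99, 100 and 52) were above all PBS_SAL libraries. Its log2 fold change for HDM averaged was 0.77 ± 0.14 (adjusted p = 0.00046). Oas3 was at 6.54 CPM (4.65 to 7.66) in PBS_SAL, 5.98 (4.697 to 12.2) in PBS_CP, 7.72 (6.03 to 15.4) in HDM_SAL and 11.7 (8.04 to 17.7) in HDM_CP, with PBS_CP 76 among the highest values, so the CP groups overlapped. It rose by 0.67 ± 0.15 (adjusted p = 0.0033) for HDM averaged. Oas3 was also the member with the smallest p for combustion products, at 0.42 ± 0.16 for CP averaged (adjusted p = 0.38), which did not pass the test.

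Oasl1, which dampens translation of Irf7 RNA, was at 3.66 CPM (2.797 to 4.35) in PBS_SAL, 2.98 (2.38 to 4.93) in PBS_CP, 3.58 (3.23 to 7.65) in HDM_SAL and 4.84 (3.86 to 8.53) in HDM_CP. Libraries 66, 67 and 49 of HDM_CP were above every PBS_CP library, and the other 4 overlapped them. Oasl1 rose by 0.52 ± 0.14 (adjusted p = 0.013) for HDM averaged. Oasl2, the most abundant of the family in CPM and TPM, was at 64.3 CPM (54.6 to 75.2) in PBS_SAL, 62.1 (56.3 to 75.9) in PBS_CP, 74.3 (60.7 to 145) in HDM_SAL and 86.8 (68.5 to 142) in HDM_CP. It rose by 0.53 ± 0.13 (adjusted p = 0.0042), and 4 of 7 HDM_CP libraries were above every PBS_CP library. In HDM_CP against PBS_CP the call of Oasl2 was lost without HDM_CP 67.

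Of the Mx proteins, GTPases that trap viral nucleocapsids, Mx1 rose and Mx2 did not pass the test. C57BL/6 mice are known to carry a defective Mx1 allele, so the Mx1 level here is that of its RNA only. Mx1, on chromosome 16 at 97248235 to 97264107 (GRCm39), was at 6.16 CPM (5.24 to 8.29) in PBS_SAL, 7.17 (4.41 to 8.28) in PBS_CP, 9.63 (6.96 to 26.001) in HDM_SAL and 12.7 (10.3 to 22.1) in HDM_CP. Every HDM_CP library was above every PBS_CP library, and 4 of 6 HDM_SAL libraries (99, 54, 72 and 50) were above every PBS_SAL library. The log2 fold change was 1.10 ± 0.17 (adjusted p = 6.98e-05) for HDM averaged, 1.19 ± 0.24 (adjusted p = 0.0023) within CP and 1.01 ± 0.25 (adjusted p = 0.016) within saline. Without HDM_SAL 99 the value within saline was 0.65 (adjusted p = 0.084). Mx2 was at 5.09 CPM (3.86 to 6.03) in PBS_SAL, 5.73 (3.82 to 6.803) in PBS_CP, 5.66 (4.5998 to 12.8) in HDM_SAL and 5.91 (5.06 to 11.2) in HDM_CP, with 0.42 ± 0.15 (adjusted p = 0.054) for HDM averaged.

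**Figure D2:**
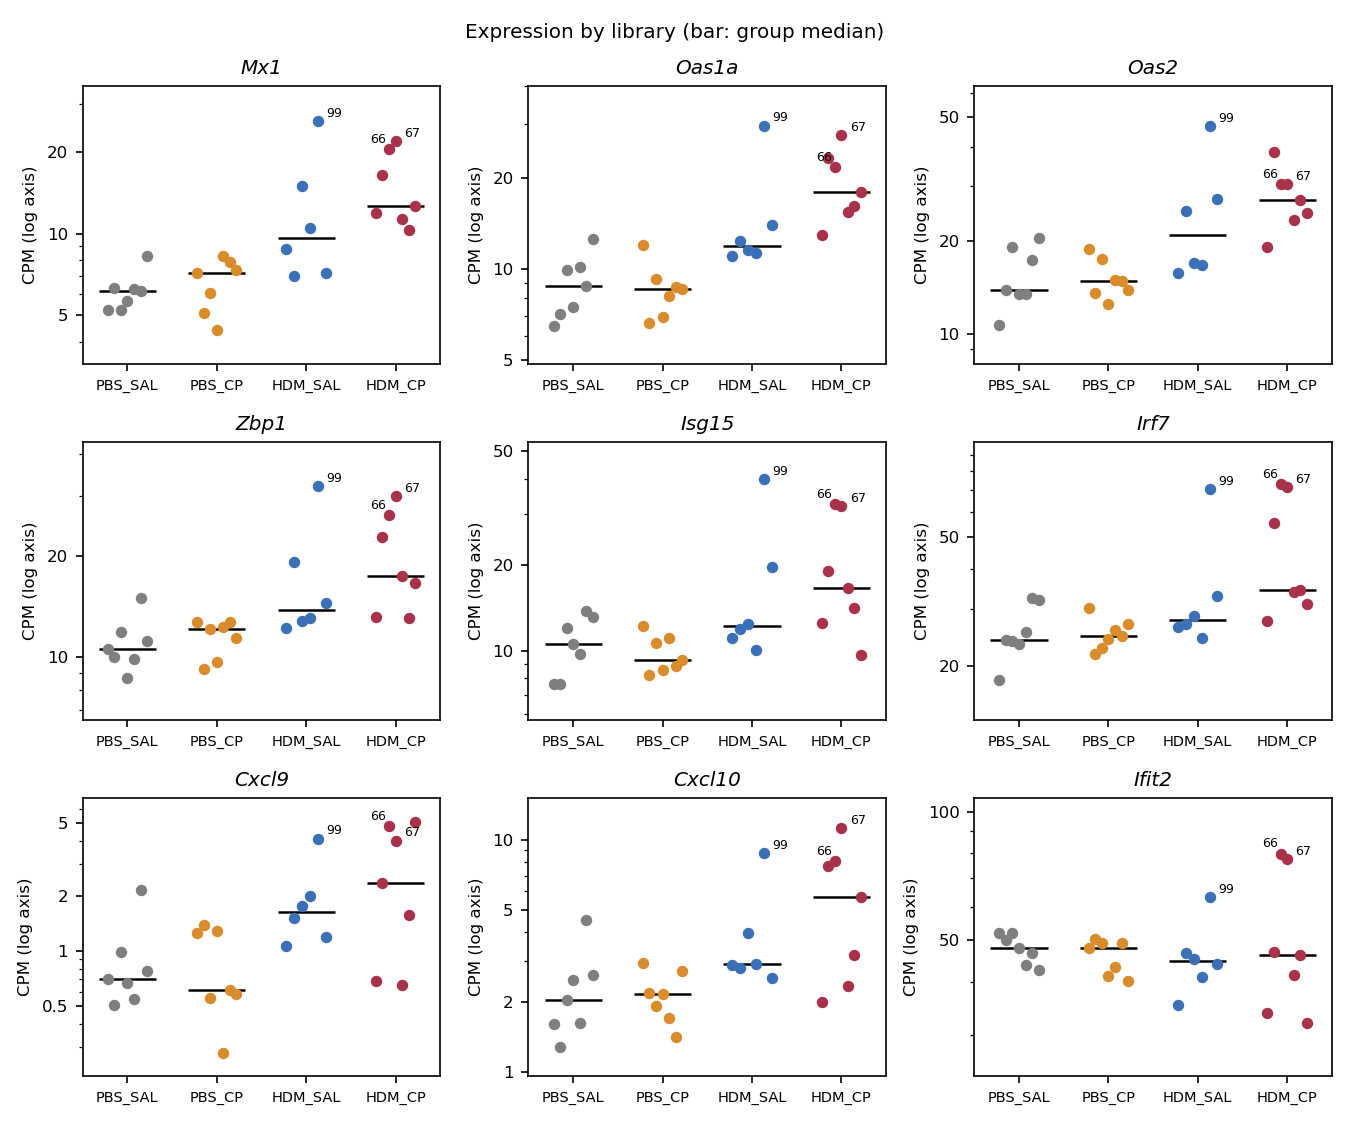
Level of 9 members in every library, in CPM on a log axis, by group; points are libraries, bars are group medians, and HDM_SAL 99, HDM_CP 66 and HDM_CP 67 are numbered. For Mx1, Oas1a, Oas2 and Zbp1 all 7 HDM_CP libraries sit above all 7 PBS_CP libraries, while for Ifit2 only 66 and 67 do.

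Sensors of nucleic acid were split. Of 6 genes in this role, Zbp1, Dhx58 and Eif2ak2 rose with HDM averaged, and Rigi, Ifih1 and Ddx60 did not pass the test. Zbp1, a sensor of Z-form nucleic acid that can start necroptosis, was at 10.6 CPM (8.69 to 14.99) in PBS_SAL, 12.2 (9.22 to 12.8) in PBS_CP, 13.8 (12.2 to 32.2) in HDM_SAL and 17.4 (13.1 to 30.02) in HDM_CP. It rose by 0.72 ± 0.14 (adjusted p = 0.00085), with all 7 HDM_CP libraries above PBS_CP. Dhx58, which encodes LGP2, the regulator of RIG-I and MDA5, was at 12.5 CPM (10.5 to 15.6) in PBS_SAL, 12.9 (10.5 to 14.8) in PBS_CP, 15.1 (13.6 to 28.4) in HDM_SAL and 18.4 (14.2 to 29.4) in HDM_CP. It rose by 0.54 ± 0.11 (adjusted p = 0.0011), and HDM_CP 45 alone of its group was within the PBS_CP range. Eif2ak2 encodes PKR, the kinase that halts translation upon double-stranded RNA, and was at 40.1 CPM (37.04 to 47.2) in PBS_SAL, 41.4 (38.2 to 46.8) in PBS_CP, 48.8 (41.4 to 62.99) in HDM_SAL and 53.1 (42.5 to 73.5) in HDM_CP. It rose by 0.34 ± 0.07 (adjusted p = 0.0016), with 6 of 7 HDM_CP and 4 of 6 HDM_SAL libraries above their PBS group. The RNA helicases themselves differed less: Rigi (RIG-I) had 0.15 ± 0.06 (adjusted p = 0.085), Ifih1 (MDA5) 0.11 ± 0.07 (adjusted p = 0.32) and Ddx60 0.16 ± 0.09 (adjusted p = 0.25).

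Among the signalling factors, Irf7 rose most. Irf7 encodes the factor that amplifies interferon alpha production and was at 24.1 CPM (18.2 to 32.5) in PBS_SAL, 24.8 (21.8 to 30.2) in PBS_CP, 27.7 (24.3 to 70.4) in HDM_SAL and 34.5 (27.6 to 73.1) in HDM_CP. It rose by 0.67 ± 0.17 (adjusted p = 0.0071) for HDM averaged and by 0.89 ± 0.23 (adjusted p = 0.018) within CP, a call lost without HDM_CP 67. HDM_CP 66, 67 and 49 and HDM_SAL 99 stood well above the rest, and 6 of 7 HDM_CP libraries were above PBS_CP. Stat2, a subunit of ISGF3, was at 95.03 CPM (88.4 to 99.1) in PBS_SAL, 93.5 (87.5 to 98.1) in PBS_CP, 99.3 (87.9 to 146) in HDM_SAL and 102 (84.2 to 145) in HDM_CP. It changed by 0.22 ± 0.08 (adjusted p = 0.042), and 16 of the 27 single-library omissions, among them that of HDM_SAL 99, HDM_CP 66 or HDM_CP 67, ended this call. Irf9, the DNA-binding subunit, had 0.20 ± 0.07 (adjusted p = 0.051) and did not pass.

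The IFIT family, proteins that bind viral RNA and block its translation, was split: 1 of 4 rose. Ifit1, on chromosome 19 at 34618271 to 34627409 (GRCm39), was at 18.9 CPM (14.8 to 23.2) in PBS_SAL, 17.98 (15.8 to 25.3) in PBS_CP, 24.6 (19.95 to 60.01) in HDM_SAL and 27.4 (21.5 to 57.95) in HDM_CP. Ifit1 rose by 0.77 ± 0.17 (adjusted p = 0.0023) for HDM averaged and by 0.92 ± 0.24 (adjusted p = 0.015) within CP, the latter lost without HDM_CP 67. Its neighbours did not pass: Ifit3 had 0.32 ± 0.15 (adjusted p = 0.16), Ifit3b 0.21 ± 0.15 (adjusted p = 0.41) and Ifit2 0.05 ± 0.12 (adjusted p = 0.85). Ifit2 was at 48.04 CPM (42.6 to 52.1) in PBS_SAL, 47.97 (40.2 to 50.3) in PBS_CP, 44.7 (35.3 to 63.3) in HDM_SAL and 46.2 (32.1 to 79.9) in HDM_CP. The 2 HDM_CP libraries 66 and 67 and HDM_SAL 99 were its 3 highest, while HDM_CP 98 and 45 and HDM_SAL 50 were its 3 lowest. Without HDM_SAL 99, HDM_CP 66 and HDM_CP 67, Ifit2 was lower in HDM, at -0.19 (adjusted p = 0.0496). Ifit3 and Ifit3b are near-identical copies that may share reads.

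ISG15 is a ubiquitin-like protein, Herc6 the mouse ligase that attaches it and Usp18 the protease that removes it and shuts off the receptor. All 3 rose for HDM averaged. Isg15 was at 10.6 CPM (7.62 to 13.8) in PBS_SAL, 9.29 (8.19 to 12.2) in PBS_CP, 12.2 (10.1 to 39.8) in HDM_SAL and 16.5 (9.66 to 32.6) in HDM_CP. It rose by 0.85 ± 0.20 (adjusted p = 0.0047), with HDM_CP 98 at the level of the PBS libraries. Within CP it rose by 0.99 ± 0.28 (adjusted p = 0.032), a call lost on leaving out any of PBS_CP 58, 75, 101 or 102 or HDM_CP 49, 66 or 67. Usp18 was at 21.3 CPM (16.5 to 24.1) in PBS_SAL, 19.9 (18.4 to 23.2) in PBS_CP, 24.4 (20.7 to 41.5) in HDM_SAL and 27.4 (21.98 to 41.02) in HDM_CP and rose by 0.41 ± 0.10 (adjusted p = 0.0053). Within CP its call was lost without PBS_CP 59 or 75 or HDM_CP 67. Herc6 was at 36.3 CPM (34.6 to 39.1) in PBS_SAL, 37.9 (34.5 to 40.9) in PBS_CP, 43.6 (33.5 to 64.5) in HDM_SAL and 44.6 (34.4 to 62.3) in HDM_CP and rose by 0.31 ± 0.09 (adjusted p = 0.017), with 5 of 7 HDM_CP and 4 of 6 HDM_SAL libraries above their PBS group.

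Rsad2, which encodes viperin, an enzyme that makes a chain-terminating nucleotide, and the neighbouring nucleotide kinase gene Cmpk2 rose, and the exonuclease Isg20 did not pass. Rsad2 was at 15.02 CPM (10.2 to 20.8) in PBS_SAL, 16.3 (12.1 to 20.3) in PBS_CP, 19.4 (12.6 to 33.96) in HDM_SAL and 21.5 (17.6 to 35.4) in HDM_CP and rose by 0.57 ± 0.14 (adjusted p = 0.0062). Its call within CP was lost in 9 of the 27 single-library omissions, those of HDM_CP 49, 66 and 67 among them. Cmpk2 was at 32.8 CPM (27.2 to 40.3) in PBS_SAL, 34.4 (31.3 to 37.9) in PBS_CP, 43.6 (32.2 to 55.8) in HDM_SAL and 39.1 (33.6 to 53.9) in HDM_CP and rose by 0.33 ± 0.08 (adjusted p = 0.0064). Libraries 99, 100, 52 and 54 of the 6 HDM_SAL and 4 of 7 HDM_CP libraries were above their PBS group. Isg20 had 0.11 ± 0.05 (adjusted p = 0.15), and no HDM_CP library was above every PBS_CP library.

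Of the 9 other effectors, 6 rose. Ifi27l2a, named for its family of small interferon-inducible proteins, was at 15.4 CPM (10.1 to 19.97) in PBS_SAL, 19.3 (13.8 to 22.8) in PBS_CP, 19.5 (13.7 to 69.98) in HDM_SAL and 29.9 (18.9 to 78.4) in HDM_CP and rose by 0.94 ± 0.24 (adjusted p = 0.0079). Its highest libraries were HDM_CP 49 and 67 and HDM_SAL 99, and within CP its call was lost on leaving out HDM_CP 49 or 67 or PBS_CP 58, 75, 76, 101 or 102. Ifi44 was at 14.4 CPM (11.9 to 16.6) in PBS_SAL, 12.6 (11.1 to 18.4) in PBS_CP, 17.5 (14.1 to 36.7) in HDM_SAL and 18.2 (15.1 to 36.2) in HDM_CP and rose by 0.71 ± 0.15 (adjusted p = 0.0019). Within CP that call was lost without HDM_CP 67. Rtp4, a chaperone of membrane receptors, was at 29.1 CPM (20.1 to 33.95) in PBS_SAL, 28.5 (24.9 to 32.2) in PBS_CP, 33.2 (27.8 to 65.4) in HDM_SAL and 36.3 (30.2 to 57.98) in HDM_CP and rose by 0.47 ± 0.12 (adjusted p = 0.0084), with 6 of 7 HDM_CP libraries above PBS_CP. Phf11d was at 28.9 CPM (25.5 to 30.5) in PBS_SAL, 29.02 (27.8 to 35.03) in PBS_CP, 31.9 (28.9 to 55.2) in HDM_SAL and 35.1 (31.8 to 53.1) in HDM_CP and rose by 0.40 ± 0.09 (adjusted p = 0.0027). Leaving out HDM_CP 49 or 67 ended its call within CP.

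Trim30a, a tripartite-motif protein, was at 56.1 CPM (52.6 to 63.4) in PBS_SAL, 58.1 (50.7 to 68.4) in PBS_CP, 68.9 (56.1 to 87.6) in HDM_SAL and 72.6 (57.98 to 98.8) in HDM_CP and rose by 0.31 ± 0.07 (adjusted p = 0.0046). Within CP its adjusted p was 0.048, and 19 of the 27 single-library omissions ended the call. Bst2 was at 74.7 CPM (65.6 to 88.8) in PBS_SAL, 68.4 (64.8 to 80.4) in PBS_CP, 76.8 (67.6 to 126) in HDM_SAL and 90.9 (69.5 to 104) in HDM_CP and rose by 0.25 ± 0.08 (adjusted p = 0.037), a call that 14 of the 27 omissions ended. The 3 effectors that did not pass were Xaf1 with 0.22 ± 0.09 (adjusted p = 0.083), Parp14 with 0.22 ± 0.08 (adjusted p = 0.055) and Ifi35 with 0.07 ± 0.05 (adjusted p = 0.32).

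The 2 chemokines, ligands of CXCR3, a chemokine receptor of T cells, rose for HDM averaged and within CP. Cxcl9 was at 0.706 CPM (0.507 to 2.16) in PBS_SAL, 0.616 (0.277 to 1.39) in PBS_CP, 1.64 (1.06 to 4.11) in HDM_SAL and 2.35 (0.651 to 5.08) in HDM_CP. It rose by 1.39 ± 0.33 (adjusted p = 0.0036) for HDM averaged and by 1.68 ± 0.46 (adjusted p = 0.02) within CP, a call lost without HDM_CP 98, its highest library, and in 6 other settings, among them the runs of library numbers as a term (adjusted p = 0.051), only the groups compared, and limma on TPM. HDM_CP 45 and 96 were within the PBS_CP range. Cxcl10 was at 2.05 CPM (1.28 to 4.51) in PBS_SAL, 2.16 (1.42 to 2.96) in PBS_CP, 2.91 (2.55 to 8.75) in HDM_SAL and 5.697 (1.99 to 11.2) in HDM_CP and rose by 1.10 ± 0.25 (adjusted p = 0.0031). Within CP it rose by 1.42 ± 0.35 (adjusted p = 0.012), and 5 of 7 HDM_CP libraries were above every PBS_CP library.

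**Figure D3:**
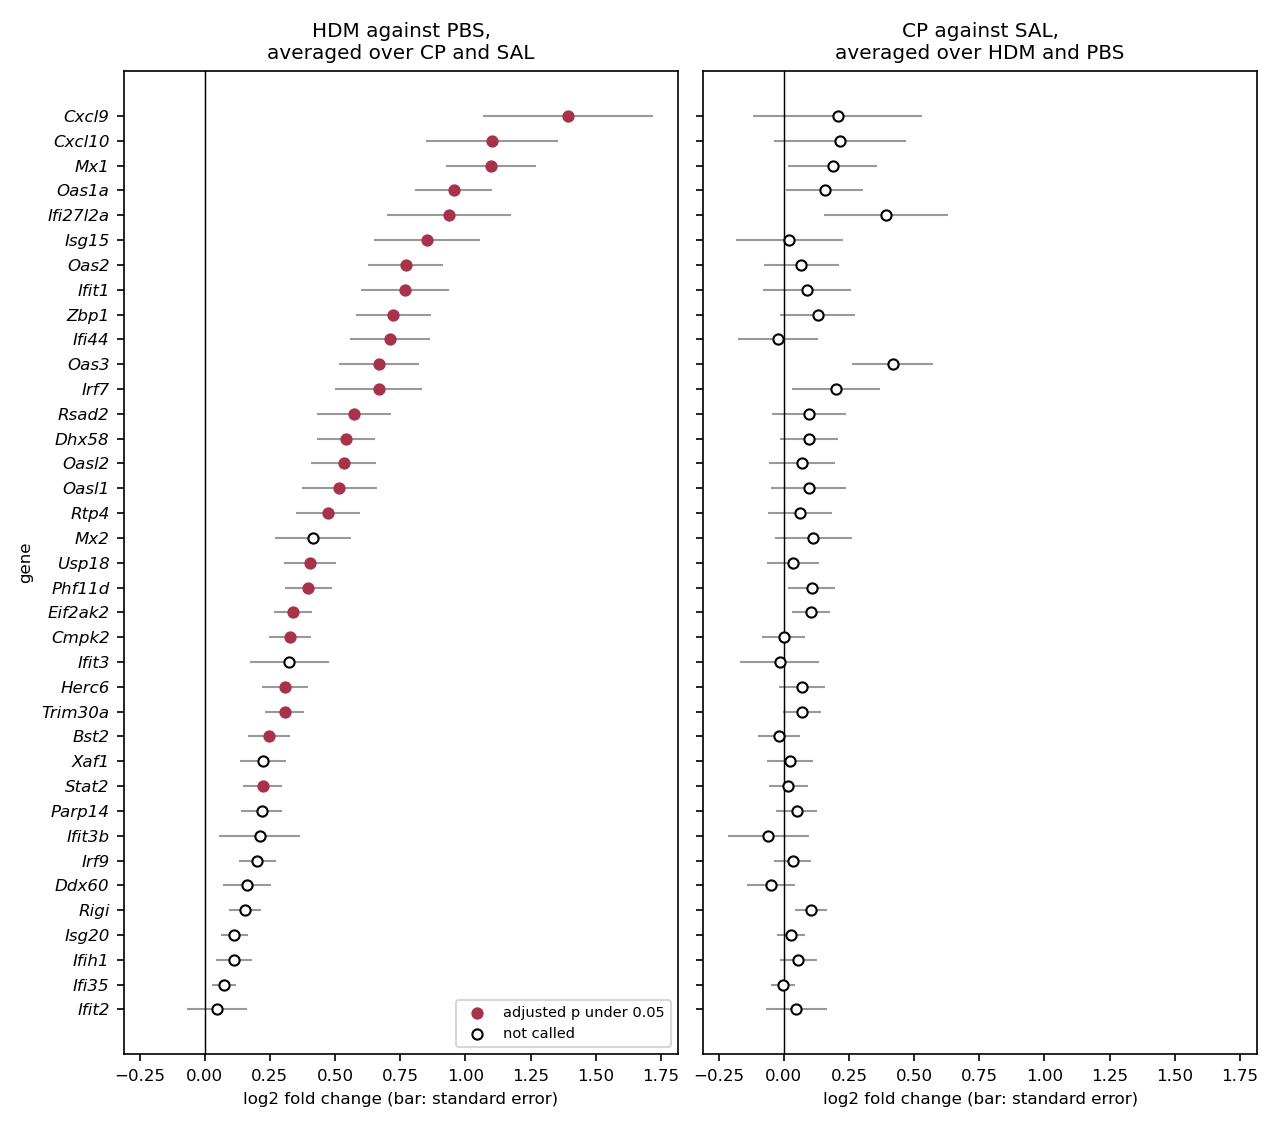
Log2 fold change of each member (points) with its standard error (bars) for HDM against PBS averaged over CP and saline (left) and for CP against saline averaged over HDM and PBS (right); filled points passed an adjusted p of 0.05. The 37 HDM values run from 0.05 for Ifit2 to 1.39 for Cxcl9 with 25 called, and the CP values run from -0.06 to 0.42 with 0 called.

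By pairs of groups, the HDM difference was called mainly among the combustion-exposed lungs. In HDM_CP against PBS_CP, 20 of 37 members were higher (13 without HDM_SAL 99, HDM_CP 66 and HDM_CP 67), where 5.60% of all genes were called higher, with a median log2 fold change of 0.49 over the list and 0.00 over all genes. In HDM_SAL against PBS_SAL, 2 of 37 were higher, Mx1 and Oas1a, where 3.19% of all genes were, so this share was close to the background. Mx1 alone was called without those 3 libraries, and 0 members were without HDM_SAL 99 alone. No shares over all genes are given beside the counts of these refits. In that comparison 21 of 37 had an unadjusted p under 0.05, all of them higher, against 20.0% of all genes in either direction, and the median log2 fold change was 0.34. The difference between these HDM effects, tested as the interaction, passed for 0 of 37 members and 0% of all genes, and 0 members had an unadjusted p under 0.05, against 6.38% of all genes. The smallest p was that of Oasl1, with an interaction of 0.55 ± 0.29 (adjusted p = 0.78). The median interaction over the list was 0.18, from 0.083 without HDM_CP 67 to 0.33 without HDM_SAL 99.

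Combustion products alone, in PBS_CP against PBS_SAL, left the list close to its starting level. With edgeR, 0 of 37 members passed, where 0.00812% of all genes were called higher, 0 had an unadjusted p under 0.05, against 5.45% of all genes, and the median log2 fold change was -0.02. Between the HDM groups, HDM_CP against HDM_SAL, 0 of 37 passed in either direction, where 0.00406% of all genes were called higher. Oas3 alone had an unadjusted p under 0.05, at 0.56 ± 0.22 (adjusted p = 0.39), against 9.70% of all genes in either direction. DESeq2 and limma called 0 members in these comparisons as well. The median log2 fold change of the list in HDM_CP against HDM_SAL was 0.16, and it was 0.33 without HDM_SAL 99, 0.057 without HDM_CP 66, 0.064 without HDM_CP 67 and 0.087 without HDM_SAL 50.

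The levels differed strongly between mice of the same group. HDM_SAL 99 was the highest of its 6 libraries at 37 of 37 members, while it was highest at 15.5% of all genes tested. HDM_CP 66 and 67 were the 2 highest of their 7 libraries at 31 of 37 members, against 6.78% of all genes. HDM_CP 49 was at rank 3 of its group at 26 members, for which no share over all genes was computed. The summed TPM of the members was 2340 in HDM_SAL 99, 2242 in HDM_CP 66 and 2266 in HDM_CP 67. Relative to the median of the other HDM_SAL libraries, HDM_SAL 99 was 1.83-fold higher at the median member, from 1.17-fold for Rigi to 3.60-fold for Ifi27l2a, and at least 2-fold at 17 members. The mean of HDM_CP 66 and 67 relative to the other HDM_CP libraries was 1.56-fold at the median member, from 0.94 for Isg20 to 3.02 for Cxcl10. The members that were high in HDM_SAL 99 were largely those high in HDM_CP 66 and 67, which share no library: Pearson's r of the log2 ratios over the 37 members was 0.74, a description over genes that are not independent. The other HDM_SAL libraries were 1.11-fold above PBS_SAL and the other HDM_CP libraries 1.197-fold above PBS_CP at the median member.

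Without these 3 libraries, HDM averaged gave 21 members higher, all among the 25, and 1 lower, Ifit2. No share over all genes is given for this refit. The calls lost were Oasl1, Stat2, Herc6 and Bst2. The median log2 fold change fell from 0.41 to 0.22. In HDM_CP against PBS_CP 13 of the 20 were called, with a median of 0.27. In HDM_SAL against PBS_SAL only Mx1 was, at 0.65 (adjusted p = 0.042), with a median of 0.16. Without HDM_SAL 99 alone the Mx1 value was also 0.65, and its call was lost. Leaving out libraries picked for high member values narrows the spread that the p-values rest on, so these calls are descriptive. Oas1a within CP was 0.99 without the 3 libraries (adjusted p = 0.000296). Without the 3 HDM_SAL libraries of high mitochondrial RNA, 50, 54 and 99, 0 members were called in HDM_SAL against PBS_SAL and 20 were for HDM averaged. Over all genes, calls in either direction went from 1339 to 34 and from 3986 to 1884 in the same comparisons, so the loss was not limited to the members.

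**Figure D4:**
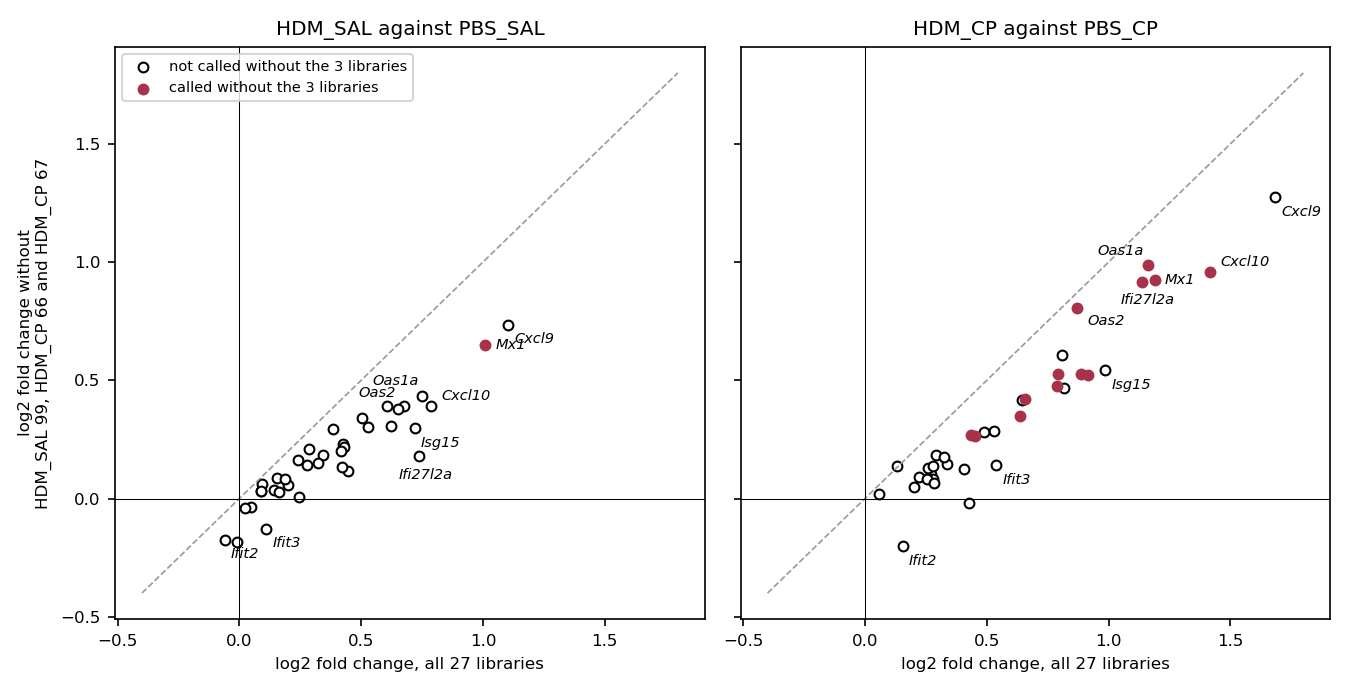
Log2 fold change of each member without HDM_SAL 99, HDM_CP 66 and HDM_CP 67 (vertical axis) against that in all 27 libraries (horizontal axis), for HDM_SAL against PBS_SAL (left) and HDM_CP against PBS_CP (right); the dashed line marks equal values and filled points were called without the 3 libraries. Nearly all points lie below the line, with 1 call left on the left and 13 on the right.

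The interferons themselves were scarcely detected. Of 21 interferon ligand genes, 12 had 0 estimated counts in all 27 libraries, among them 10 of 13 interferon alpha genes. Ifnb1, the interferon beta gene, had counts in 4 libraries with a maximum of 8, and these were 1 PBS_SAL, 2 HDM_SAL and 1 HDM_CP library. The only ligand gene that passed the filter was Ifng, interferon gamma. It had -0.29 ± 0.25 for HDM averaged (adjusted p = 0.49) and -1.06 ± 0.36 in HDM_CP against HDM_SAL (adjusted p = 0.29), neither of which passed. In HDM_SAL 99 Ifng was at 0.85 CPM, within the range of the other HDM_SAL libraries (0.24 to 1.69). In HDM_CP 66 and 67 it was at 0.49 and 0.32 CPM, where the other HDM_CP libraries had 0.24 to 0.38, so 66 was the highest of its group.

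Receptors and kinases moved little: of 10, Ifngr2 (0.27 ± 0.04, adjusted p = 6.98e-05) and Jak2 (0.20 ± 0.06, adjusted p = 0.022) rose with HDM averaged and Ifngr1 fell (-0.13 ± 0.04, adjusted p = 0.037). The type I receptor chains did not pass, with -0.08 ± 0.05 for Ifnar1 and 0.06 ± 0.03 for Ifnar2. Of all genes tested, 9.20% were called higher and 6.98% lower with HDM averaged.

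Among 16 adaptors and factors that induce interferon, 6 rose and 1 fell with HDM averaged, where 9.20% of all genes were called higher and 6.98% lower. Sting1, the adaptor of cytosolic DNA sensing, rose by 0.50 ± 0.07 (adjusted p = 2.16e-05), and Cgas, the sensor that feeds it, by 0.35 ± 0.08 (adjusted p = 0.0019). Irf5 rose by 0.37 ± 0.08, and Myd88, Traf3 and Tlr8 were the other 3. Irf3 fell by 0.10. Sting1 had medians of 20.5 CPM in PBS_SAL, 22.3 in PBS_CP, 25.5 in HDM_SAL and 33.3 in HDM_CP. It was at 32.2 CPM in HDM_SAL 99, the highest of its group, and at 28.6 and 40.6 CPM in HDM_CP 66 and 67, within the range of theirs.

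Of 10 negative regulators, 3 rose and 0 fell with HDM averaged, where 9.20% of all genes were called higher and 6.98% lower. Socs1, which blocks JAK kinases, rose by 1.01 ± 0.12 for HDM averaged (adjusted p = 1.94e-06) and was the only one of 10 called in HDM_SAL against PBS_SAL. Its medians were 3.00 CPM in PBS_SAL, 3.72 in PBS_CP, 6.19 in HDM_SAL and 7.59 in HDM_CP, with every HDM library above every PBS library. Socs3 rose by 0.38 ± 0.08 (adjusted p = 0.0019), and Usp18 was the third. Of 50 further interferon-stimulated genes tested, 14 rose and 0 fell with HDM averaged, with a median of 0.12. Slfn9 rose by 0.87 ± 0.15 (adjusted p = 0.00022), Oas1g by 1.19 ± 0.21 (adjusted p = 0.00031) and Ifi204, a member of the DNA-binding p200 family, by 0.63 ± 0.12 (adjusted p = 0.00041). Trim30d followed with 0.37, Ifi211 with 0.55 and Lgals3bp with 0.54. HDM_SAL 99 was the highest of its group at 30 of these 50, against 15.5% of all genes tested. HDM_CP 66 and 67 were the highest of theirs at 21 each, against 15.8% and 13.1% of all genes.

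Some cell type marker lists differed between the same groups and others did not. With HDM averaged, 9.20% of all genes tested were called higher and 6.98% lower, so a single call in a short list is not a result about that list. Of 12 monocyte and recruited macrophage markers, 8 rose with HDM averaged, and their summed level was 1893 CPM in PBS_SAL (1648 to 2065), 1845 in PBS_CP (1570 to 1872), 2707 in HDM_SAL (2172 to 3932) and 4075 in HDM_CP (2640 to 5466). Chil3, also a product of alternatively activated macrophages, dominated that sum, Ccr2 rose by 0.70 ± 0.08, and Ly6c2 did not pass within CP or within saline. HDM_SAL 99 had the highest sum of its group, whereas HDM_CP 66 had rank 5 and 67 rank 2 of 7. Of 9 alveolar macrophage markers, which also hold Chil3, 4 rose and 1 fell with HDM averaged, and they summed to 646 CPM in PBS_SAL (399.8 to 753), 579 in PBS_CP (454 to 714), 1544 in HDM_SAL (1298 to 2654) and 2684 in HDM_CP (1462 to 4211). HDM_SAL 99 had the highest of these sums in its group, and HDM_CP 66 had rank 5 and 67 rank 2. Of 9 neutrophil markers 1 rose with HDM averaged, and they summed to medians of 98.8, 89.9, 98.6 and 147 CPM in the same order of groups, with HDM_SAL 99 the highest of its group. Of 6 airway ciliated cell markers 1 rose, and of 4 club cell markers 1 fell. Plasmacytoid dendritic cells are the specialised makers of interferon alpha. Their 9 markers summed to 329 CPM in PBS_SAL (302 to 347), 343 in PBS_CP (300.4 to 385), 323 in HDM_SAL (309 to 389) and 319 in HDM_CP (286 to 371). Cd209d alone of them rose. HDM_SAL 99 had the lowest of these sums in its group, and HDM_CP 66 had rank 3 and 67 rank 5 of 7. By single markers, HDM_CP 67 was the highest of its group at 4 of 9, HDM_CP 66 at 1 and HDM_SAL 99 at 2. The marker Siglech was at 5.54 and 5.26 CPM in HDM_CP 66 and 67, above the other HDM_CP libraries (1.31 to 4.23). In HDM_SAL 99 it was at 2.80 CPM, within the range of the other HDM_SAL libraries. Natural killer and T cell markers, 11 genes, summed to medians of 108, 96.4, 101 and 95.6 CPM in the same order of groups, and 0 of 11 passed for HDM averaged. Markers of heart muscle summed to 167 CPM in HDM_SAL 99, the highest of its group. The part of these cells in the interferon gene levels was not tested.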

How the data were processed

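Polyadenylated RNA of 27 mouse lungs was sequenced as 150-base paired reads, with 20 M (1e+06) planned per library, per the labels. The authors deposited 1 table of estimated counts per gene and 1 of TPM (transcripts per 1e+06, scaled for gene length) with gene positions; per the submitters' processing notes STAR, StringTie 2 and GRCm39 were used, and the STAR version and the use of strand in counting are not given in the sources used here. Overlapping genes, antisense genes and close copies (Ifit3 and Ifit3b, Oas1a and Oas1g) are therefore uncertain. The estimated counts total 56.3 to 84.5 M, about 4 times the planned reads; division by 4 was tried as an alternative. Genes without a symbol (310) hold 0.0602% of counts and stayed in the tables.

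Estimated counts were rounded and filtered with edgeR's filterByExpr (minimum count 10), leaving 24629 genes. Library sizes were scaled by TMM, and CPM, in the text and figures, uses these sizes. The main test was edgeR 4.0.16 quasi-likelihood (R 4.3.3) over all 4 groups with no covariate, for 7 comparisons, with Benjamini-Hochberg adjustment over all genes and a threshold of 0.05. "HDM averaged" is the mean of the HDM effects within CP and within saline, and "CP averaged" likewise; the interaction is the difference of those HDM effects. Alternatives used DESeq2 1.42.0, limma 3.58.1 with voom or on log2(TPM + 1), other filters and omitted libraries. On simulated counts over 24629 genes, the HDM averaged test recovered 97.5% of 200 genes changed 2-fold, with 11 false calls. Those changes were larger than the members' median log2 fold change of 0.41, and no simulated library was made to stand apart. The simulation therefore does not measure how often changes as small as the members' are found, and it did not cover the combustion product tests.

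Every member called in any comparison is given with its lowest, median and highest library; of other pathway genes those with the smallest p, at most 6 a list, are named. The members and lists were chosen with earlier results of these data known. Promoter windows and their sequences are RefSeq's, on GRCm38.p6, another build than the gene positions, and 9 members had no window in that table.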

Additional observations from a re-analysis of the deposited data

Results flagged for a closer look

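Within each group and member, and for the summed TPM, a library was singled out when its gap to the nearest other library took more of the group's range than Dixon's 95% critical value. Over 152 sets of values this gave 26. Independent, normally distributed values would give about 1 in 20 sets, but the members vary together and the sum is made of them. The sets are therefore not independent, and that rate is no yardstick for the flagged sets.

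HDM_SAL 99 was far above the rest of its group in 17 of them. Its values were 29.7 CPM for Oas1a (next highest 14.0), 46.7 for Oas2 (27.2), 7.65 for Oasl1 (4.65), 12.8 for Mx2 (6.64) and 60.0 for Ifit1 (30.1). Ifit3 was at 144.8 (79.1) and Ifit3b at 41.9 (25.3), and Isg15 at 39.8 (19.7), Usp18 at 41.5 (26.2) and Irf7 at 70.4 (32.95). Dhx58 was at 28.4 (18.2), Zbp1 at 32.2 (19.1), Xaf1 at 60.4 (43.3) and Ifi27l2a at 70.0 (20.1). Its chemokines were at 4.11 CPM for Cxcl9 (1.99) and 8.75 for Cxcl10 (3.98). The summed TPM of the members was 2340 (1530).

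PBS_CP 57 was far above its group for Oasl2 at 75.9 CPM, Ifit1 at 25.3, Ifi44 at 18.4 and Phf11d at 35.0. PBS_SAL 104 was for Cxcl9 at 2.16 CPM, Cxcl10 at 4.51 and Ifi35 at 57.7. PBS_SAL 105 was high for Mx1 at 8.29 CPM and low for Ifit3b at 18.7.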

How the results depend on the processing

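The 25 members higher for HDM averaged stayed between 18 (limma on log2(TPM + 1) without a filter) and 28 (DESeq2, or counts divided by 4) in other settings, and between 23 and 29 without 1 library. The 20 higher in HDM_CP against PBS_CP became 13 with limma on log2(TPM + 0.1), 5 with log2(TPM + 1) without a filter and 13 without HDM_SAL 99, HDM_CP 66 and HDM_CP 67; without 1 library they were 10 (without HDM_CP 67) to 25 (without HDM_CP 45). With the 3 runs of library numbers as a term, which the labels do not call batches, 16 of those 20 kept their call, Isg15, Rsad2, Cxcl9 and Trim30a did not, and 27 were higher for HDM averaged. The 2 higher in HDM_SAL against PBS_SAL became 6 with DESeq2, 4 with counts divided by 4 or without the 3 libraries with the lowest totals, 1 without a filter on counts, with limma on log2(TPM + 1) or log2(TPM + 0.1), with only the groups compared, or without HDM_SAL 99, HDM_CP 66 and HDM_CP 67, and 0 with TPM without a filter or without HDM_SAL 50, 54 and 99. Without 1 library they were 0 to 5: 0 without HDM_SAL 99, 1 without PBS_SAL 61, 64, 79 or 80, 4 without HDM_SAL 50 and 5 without HDM_SAL 72. Members lower for HDM averaged went from 0 to 1, Ifit2, without HDM_SAL 99, HDM_CP 66 and HDM_CP 67. The cause of these shifts was not tested, apart from the fewer libraries where some were left out. The 0 calls for combustion products and the interaction held in every setting run, and no called member changed sign in any. The omissions of 3 libraries were chosen after seeing the data. Shares over all genes are not given beside the counts in this section. No paired analysis was possible because the groups share no library numbers.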
